A study of Mus musculus with 4 samples.

Results

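The regions described here are 2951 CpG-poor promoters of protein-coding genes, 17.5% of the 16862 promoters that could be scored. Each is the window of 500 bp on both sides of 1 transcript start per gene on chromosomes 1 to 19. A window entered the set when 3 to 10 CpGs in it were listed in any of the 4 libraries and at least 3 of these had 5 or more reads in all 4 libraries. Neither the methylation level nor any difference between libraries entered this choice. Of 20722 genes, 3385 had 3 to 10 listed CpGs, and 434 of these lacked the reads to be scored. A further 1226 windows held fewer than 3 listed CpGs. The other scored promoters, used for comparison, were 5094 with 11 to 40 listed CpGs and 8817 with more than 40.

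Vertebrate promoters fall into CpG-rich ones, most of them in CpG islands that stay unmethylated whether or not the gene is transcribed, and CpG-poor ones, which lie in the methylated bulk of the genome. CpG-poor promoters are common at genes used in 1 cell type or at 1 stage, such as sensory receptors, digestive enzymes and immune genes, and they often have a TATA box. Their methylation is usually high where the gene is silent and lower near the start where it is used. TET1 is a dioxygenase that oxidises 5-methylcytosine, a step towards its removal, and in many cell types it is concentrated at CpG-rich promoters.

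The 4 libraries are whole-genome bisulfite sequencing (WGBS) of brains from single male mouse embryos at E11.5 (embryonic day), from dams fed folic acid (FA) at 30 ppm (excess) or 3 ppm (control), in diets that also held the antibiotic succinylsulfathiazole. The groups were KO at 30 ppm, WT at 30 ppm, KO at 3 ppm and WT at 3 ppm with 1 library each, all in the 129S6.cg Tet1<tm1Koh> strain, in which a Tet1 allele with a cassette inserted at its first coding ATG, made in a C57BL/6 strain, was backcrossed onto 129S6. The dams were Tet1 heterozygous. The embryo numbers of the libraries match a sample list of the study. It gives a neural tube defect for both KO embryos and none for the WT embryos, with 4 different litters. Genotype, phenotype and litter therefore cannot be told apart, and neither can diet and litter. Brain identity rests on the labels, since CpG reads do not measure expression. With 1 library per group no value has an SD, and a test on 2 libraries compares those libraries and says nothing of the spread between embryos.

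The level of a promoter is the share of methylated reads, in percent, over its scored CpGs. A CpG-poor promoter had a median of 5 scored CpGs, and the median summed read count was 69 in KO against 76 in WT at 30 ppm, and 114 in KO against 88 in WT at 3 ppm. This gave a median half-width of the 95% Wilson interval between 6.62 points (KO, 3 ppm) and 8.34 points (KO, 30 ppm). Over all scored promoters the median counts were 110 to 181 reads, so calls at CpG-poor promoters rest on fewer reads. Mean coverage of autosomal CpGs was 13.2 to 21.2 reads, with KO at 3 ppm the deepest library. A read counts once at every CpG it covers and carries no molecular identifier, so intervals cover counting error only and can be too narrow.

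The 5 sequences that follow show what such a promoter looks like. They are the 250 bp before the start in GRCm38, read in the direction of transcription, with each CG in capitals. Pex5l, Cyp4f16, Sgk2 and Neurod6 are shown because their windows were called higher in KO at both diets, and Vwa5a because its window was among the lowest in level.
Pex5l, chr3:33083061-33083310, minus strand: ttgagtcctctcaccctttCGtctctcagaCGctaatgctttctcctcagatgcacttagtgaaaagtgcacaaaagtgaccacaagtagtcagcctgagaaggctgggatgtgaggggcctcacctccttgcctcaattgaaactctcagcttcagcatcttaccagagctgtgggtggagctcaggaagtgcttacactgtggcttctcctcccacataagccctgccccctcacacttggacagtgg
Cyp4f16, chr17:32536308-32536557, plus strand: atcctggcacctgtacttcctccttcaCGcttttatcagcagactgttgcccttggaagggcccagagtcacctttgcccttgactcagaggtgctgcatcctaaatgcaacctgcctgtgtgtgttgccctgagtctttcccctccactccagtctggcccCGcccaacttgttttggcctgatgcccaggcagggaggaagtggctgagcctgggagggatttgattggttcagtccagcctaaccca
Sgk2, chr2:162987080-162987329, plus strand: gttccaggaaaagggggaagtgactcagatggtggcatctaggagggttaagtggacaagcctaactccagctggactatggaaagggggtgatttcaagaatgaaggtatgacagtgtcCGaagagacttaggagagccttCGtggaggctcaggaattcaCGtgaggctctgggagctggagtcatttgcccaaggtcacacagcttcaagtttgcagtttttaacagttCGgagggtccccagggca
Neurod6, chr6:55681264-55681513, minus strand: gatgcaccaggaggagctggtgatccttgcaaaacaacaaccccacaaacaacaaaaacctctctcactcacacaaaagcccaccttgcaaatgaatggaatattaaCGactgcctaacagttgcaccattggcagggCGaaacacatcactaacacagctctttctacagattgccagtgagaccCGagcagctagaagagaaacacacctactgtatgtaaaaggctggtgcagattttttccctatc
Vwa5a, chr9:38718018-38718267, plus strand: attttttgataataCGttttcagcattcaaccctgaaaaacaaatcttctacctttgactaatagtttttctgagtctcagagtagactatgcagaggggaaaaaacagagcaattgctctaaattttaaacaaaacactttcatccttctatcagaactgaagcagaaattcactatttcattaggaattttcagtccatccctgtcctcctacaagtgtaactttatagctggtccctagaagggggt

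None of these 5 stretches overlaps an annotated exon. They hold 2 CGs at Pex5l, 2 at Cyp4f16, 4 at Sgk2, 3 at Neurod6 and 1 at Vwa5a. The letters TATAAA, searched on both strands within 50 bp upstream of the start, occur at Vwa5a and at none of the other 4, and CCAAT, searched on both strands within 100 bp upstream, occurs at Cyp4f16 alone.

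Over all CpG-poor promoters TATAAA occurred in 290 windows, 9.83%, against 3.82% of all scored promoters, 4.57% of those with 11 to 40 CpGs and 1.37% of those with more than 40. CCAAT occurred in 18%, against 20.7% of all scored promoters. Median GC was 42.5% and the median ratio of observed to expected CpG was 0.138, against 0.767 at promoters with more than 40 CpGs. Only 63 CpG-poor promoters, 2.13%, lay within 2 kb of a CpG island computed from the sequence, against 51.7% of all scored promoters. At 62 members the GRCm38 window holds more than 10 CGs although no more than 10 were listed, and 414 members belong to predicted genes. There were 32 members whose windows overlap that of another member, and 30 with more than 2 times the mean coverage in every library, as copied sequence can give.

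CpG-poor promoters were methylated at a median of 84.5% in KO against 83.0% in WT at 30 ppm, and of 84.0% in KO against 84.1% in WT at 3 ppm. Promoters with 11 to 40 CpGs had medians between 55.9% and 69.5%, and those with more than 40 between 2.86% and 5.26%. In all 4 libraries 1321 CpG-poor promoters were above 80% and 9 were below 20%. A mean level below 50% was found at 132 members.

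**Figure D1:**
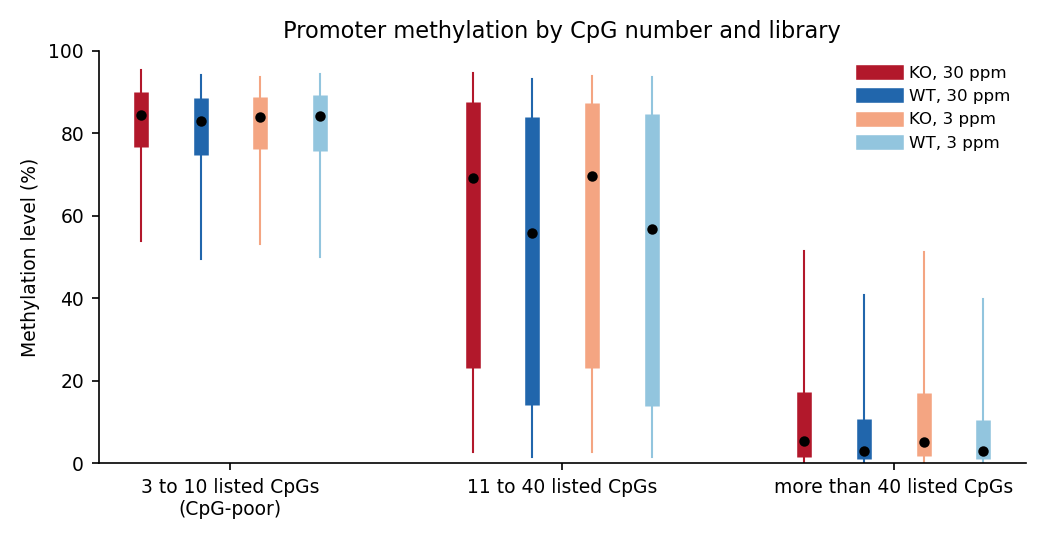
Methylation level in percent (vertical axis) of promoters by number of listed CpGs (horizontal axis) in each library. Dots are medians over promoters, thick bars the middle 50% and thin lines the range from the 5th to the 95th percentile. CpG-poor promoters have medians of 83.0% to 84.5%, above both other classes in every library.

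Within the window the level was lowest next to the start. The mean over CpGs from 100 bp upstream to the start was 79.0% in KO against 76.7% in WT at 30 ppm, and 78.9% in KO against 77.5% in WT at 3 ppm. At 400 to 500 bp upstream it was 82.7%, 81.5%, 82.2% and 82.4% in the same order. The dip was 3.65 points in KO against 4.75 in WT at 30 ppm, and 3.32 in KO against 4.92 in WT at 3 ppm. It is small beside promoters with 11 to 40 CpGs, where the mean in WT at 30 ppm went from 59.7% to 37.1% over the same distance. KO minus WT was largest in the first 100 bp of the transcript at both diets, 3.45 points at 30 ppm and 1.74 at 3 ppm, and smallest at 400 to 500 bp upstream, with 1.16 and -0.20 points.

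**Figure D2:**
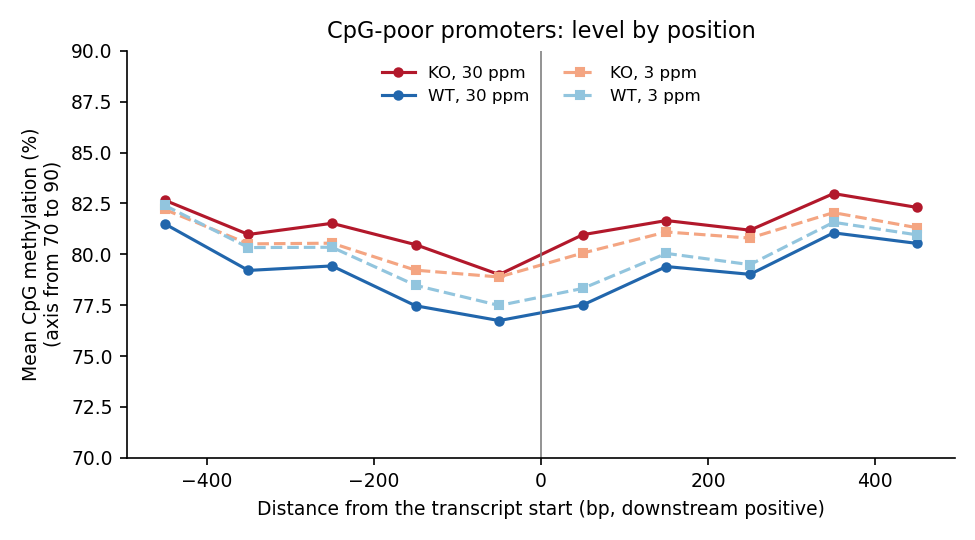
Mean methylation in percent (vertical axis, from 70 to 90) of the scored CpGs of CpG-poor promoters in bins of 100 bp by distance from the transcript start (horizontal axis). Lines are the 4 libraries, and all have their lowest bin just upstream of the start, at 76.7% to 79.0%.

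Chemosensory receptors made up the largest group of genes. Olfactory receptors, which detect odours in the nose, gave 674 members of 712 scored, vomeronasal receptors, which detect pheromones, 144 of 147, and taste receptors 27 of 32. Their median levels in WT were 83.3%, 80.5% and 85.7% at 30 ppm, then 84.6%, 81.7% and 84.9% at 3 ppm. The next lists were cytochrome P450 genes, which oxidise drugs, steroids and fatty acids (45 members), chemokines and interleukins, the signals between immune cells (35), solute carriers (33), cornified envelope genes of the outer skin (30), C-type lectin and killer cell receptors (30), serpins (29), proteases of the pancreas and gut (28), detoxifying transferases (24), zinc finger proteins (23), keratins (19), defensins (19) and striated muscle genes (10). Each of these lists had a median between 80.1% and 89.4% in every library.

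Several lists of neural genes and of other cell types gave few members or none, where 17.5% of all scored promoters are CpG-poor. Most are too short for their shares to be read. Few members were not particular to them, as the solute carriers and zinc finger proteins above also had low shares. None of the 27 scored neuronal synaptic genes, the 7 scored neural progenitor genes and the 8 scored endothelial genes was CpG-poor. The astrocyte and myelin list gave 2 of 21, Mog and Ugt8a, and the microglia and blood list 1 of 11, Fcgr3. Of 6 scored erythroid genes 5 were CpG-poor, and these had medians of 79.2% to 86.2%. Liver and serum proteins gave 5 of 32, crystallins 4 of 19 and germ cell genes 2 of 33. Neuropeptides and hormones gave 5 of 34, among them Nts (neurotensin), at 79.1% in KO against 76.5% in WT at 30 ppm, then at 73.2% in KO against 63.9% in WT at 3 ppm, and Fshb (the follicle-stimulating hormone subunit), at 85.5%, 89.9%, 85.7% and 83.7% in that order.

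A few CpG-poor promoters were almost free of methylation. Among members with at least 50 reads in every library, the lowest was Tbx5, a T-box factor of the heart and forelimb, at 0% (95% Wilson interval 0 to 5.83, 62 reads) in KO against 1.61% (0.285 to 8.59, 62 reads) in WT at 30 ppm, then at 1.33% (0.236 to 7.17, 75 reads) in KO against 1.45% (0.256 to 7.76, 69 reads) in WT at 3 ppm. Of its 7 scored CpGs, 5 had no methylated read in any library. Scn2b, the beta 2 subunit of the neuronal sodium channel, had fewer reads and was at 2.38% (0.422 to 12.3, 42 reads) in KO against 0% (0 to 9.89, 35 reads) in WT at 30 ppm, then at 1.85% (0.328 to 9.77, 54 reads) in KO against 1.61% (0.285 to 8.59, 62 reads) in WT at 3 ppm, though its window holds 13 CGs in the sequence. The levels of both overlap between all 4 libraries within their intervals.

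Vwa5a was at 23.5% in KO against 14.5% in WT at 30 ppm, then at 15.1% in KO against 21.6% in WT at 3 ppm. The CG in its printed sequence, the only scored one upstream, lay at 68.0% to 100%, and the 4 scored CpGs from 47 to 201 bp downstream at 0 to 25%. In this window methylated and unmethylated CpGs thus stand side by side, and its level depends on which of them were scored.

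Crb1, an apical polarity protein of the retina, was at 15.4% (8.58 to 26.1, 65 reads) in KO against 4.69% (1.61 to 12.9, 64 reads) in WT at 30 ppm, then at 18.3% (12.8 to 25.5, 142 reads) in KO against 6.06% (2.81 to 12.6, 99 reads) in WT at 3 ppm. KO was above WT at both diets and passed at 3 ppm only (adjusted p 0.0490 by Fisher's exact test). Runx2, the factor that directs bone formation, was at 13.9% (8.75 to 21.4, 115 reads) in KO against 15.4% (10.1 to 22.9, 123 reads) in WT at 30 ppm, then at 23.4% (18.1 to 29.7, 201 reads) in KO against 9.80% (6.03 to 15.5, 153 reads) in WT at 3 ppm, with KO above WT at 3 ppm (adjusted p 0.0122) and 1.53 points below at 30 ppm. Also among the 8 lowest were Sys1, Naa80 and Pik3ip1, none of which was called in either genotype comparison. Below 20% in every library but with fewer reads were Camk1g, a calcium-dependent kinase of neurons, at 12.5% in KO against 3.37% in WT at 30 ppm, then 9.26% and 7.32% at 3 ppm, and Olfr630, Cyp4f15 and Trim12c. At Olfr630 the level was 0 in 3 libraries and 1.27% in KO at 3 ppm over 3 CpGs, and the Wilson interval for 0 of 39 reads in WT at 3 ppm reached 8.97%. A base that differs between 129S6 and the reference can read as an unmethylated CpG, and this was not tested for single genes.

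KO minus WT at these promoters was small and less one-sided than at CpG-richer ones. At 30 ppm 38 members were called hyper (higher in KO) and 6 hypo (lower in KO) by Fisher's exact test on reads, two-sided, with Benjamini-Hochberg adjustment over all 16862 promoters, at an adjusted p under 0.05 and at least 10 points. That is 1.29% and 0.203% of the members, where 7.38% and 0.178% of all scored promoters were called. At 3 ppm 59 were hyper and 23 hypo, 2.00% and 0.779%, against 9.86% and 0.249% of all scored promoters. The median difference was 1.68 points at 30 ppm, with 59.5% of members above 0, and -0.05 points at 3 ppm, with 49.4% above 0. Over all scored promoters the medians were 2.23 and 1.88 points, and over those with 11 to 40 CpGs 4.46 and 3.81 points. Promoters with more than 40 CpGs had medians of 1.4985 and 1.6098 points, with 67.7% and 72.5% above 0. Their median was thus below that of the CpG-poor promoters at 30 ppm and above it at 3 ppm. KO was also above WT in the mean over all autosomal CpGs with 5 or more reads in each library, at 83.5% against 81.4% under 30 ppm and 82.8% against 82.1% under 3 ppm. In the share of methylated reads over all listed autosomal CpGs it was at 83.1% against 81.6% and at 82.0% against 81.5%. Of the 42 promoters of any kind called hypo at 3 ppm, 23 were CpG-poor, and of the 30 at 30 ppm, 6 were. A promoter below 10% in WT cannot be called hypo, and 9200 of the 16862 scored promoters were below 20% in WT at 3 ppm. Members at 80% or more in the WT library of the other diet had 16 hypo calls of 1784 at 3 ppm. At 30 ppm they had 5 of 1895. Promoters with 11 to 40 CpGs at that level had 3 of 1590 and 3 of 1632.

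The difference grew with the number of CpGs inside the set. At 30 ppm the median difference went from 0.08 points at 371 promoters with 3 listed CpGs to 3.28 points at 319 promoters with 10, and at 3 ppm from -1.39 to 1.96 points. Hyper calls with 8 to 10 CpGs were 21 of 38 at 30 ppm and 37 of 59 at 3 ppm, while 33.2% of members had that many. Median summed reads rose too, at 30 ppm from 48 in KO and 49 in WT at 3 CpGs to 93 and 100 at 10. At 3 ppm they rose from 78 and 59 to 152 and 118. Larger sums make a call easier to reach, and the calls were not matched for them. Hypo calls with 8 to 10 CpGs were 2 of 6 at 30 ppm and 5 of 23 at 3 ppm, and those with 3 to 5 CpGs, a range that holds 42.5% of members, were 1 of 6 and 11 of 23. Just outside the limit of the set, the 326 promoters with 11 listed CpGs had medians of 3.40 and 1.71 points and levels of 82.6% to 86.3%, and 4.60% of them were hyper at 30 ppm and 6.75% at 3 ppm, against 1.88% and 5.02% of those with 10 CpGs and 3.55% and 4.19% of those with 9. Members above the median GC of the set had medians of 2.86 and 1.36 points, and those at or below it 0.81 and -1.04 points.

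**Figure D3:**
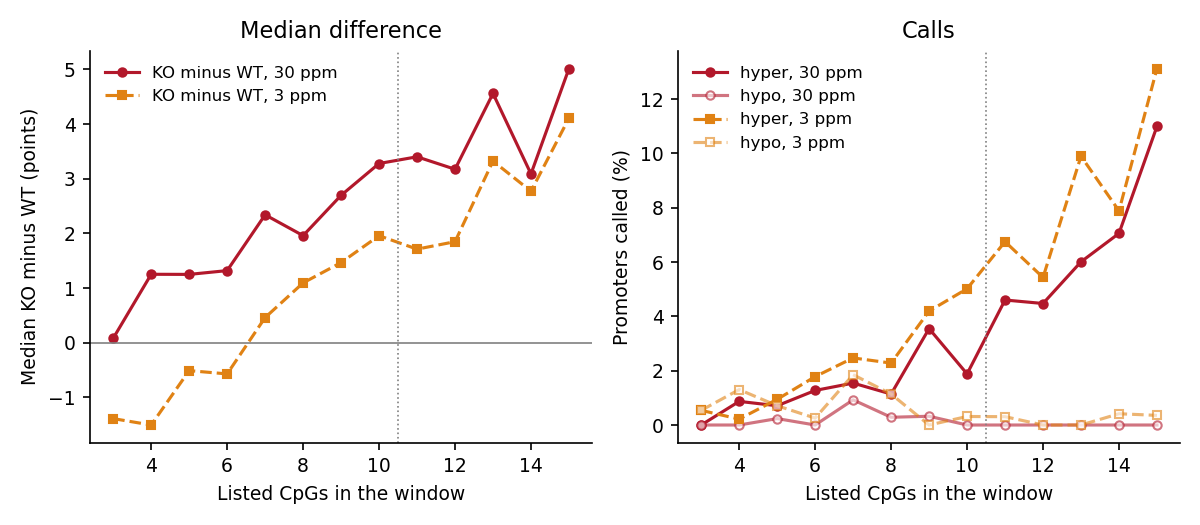
Median KO minus WT in percentage points (left) and percent of promoters called hyper or hypo by Fisher's exact test (right) against the number of listed CpGs in the window (horizontal axes), at 30 ppm and 3 ppm. The dotted line stands between 10 and 11 CpGs, the limit of the CpG-poor set. Both the median difference and the share of hyper calls tend to be larger at more CpGs over the numbers shown, with falls between some neighbouring numbers. Summed reads also rise with the number of CpGs and were not matched.

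The classes also differed at similar summed read counts. The median number of scored CpGs was 5 at CpG-poor promoters and 12 at those with 11 to 40 CpGs, so reads per CpG were not matched. Among promoters with 50 to 100 summed reads in the library of the pair with fewer, 1.40% of 1503 CpG-poor promoters were hyper at 30 ppm, against 10.8% of 1209 with 11 to 40 CpGs. At 3 ppm the shares were 1.66% of 1442 and 17.2% of 876. Restricted further to a WT level of at least 50%, read in the WT library of the other diet, they were 1.11% against 5.10% at 30 ppm and 1.01% against 9.63% at 3 ppm.

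The difference varied with the level in WT. Members at 80% or more have less room to rise than lower ones. Sorted by the WT library of the other diet, which takes no part in the difference, the 123 members between 20% and 50% had a median KO minus WT of 8.19 points at 30 ppm, with 77.2% above 0, and the 1895 members at 80% or more had 1.11 points and 57.1%. At 3 ppm the 127 members between 20% and 50% had 4.62 points and 67.7%, and the 1784 at 80% or more had -0.67 points and 44.8%. Hyper calls at 3 ppm were 15% of the first and 0.673% of the second, and at 30 ppm 4.88% and 0.739%. The few members under 20% had smaller medians than those between 20% and 50%, 2.20 points over 20 members at 30 ppm and 0.882 points over 22 at 3 ppm.

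Called hyper at both diets were 8 members, 0.271%, where 4.04% of all scored promoters were, and 0 were hypo at both. Tap2, a subunit of the transporter that carries peptides into the endoplasmic reticulum for antigen presentation, had the largest mean difference. It was at 96.8% (83.8 to 99.4, 31 reads) in KO against 45.5% (29.8 to 62.0, 33 reads) in WT at 30 ppm, then at 93.5% (79.3 to 98.2, 31 reads) in KO against 61.2% (47.2 to 73.6, 49 reads) in WT at 3 ppm. All 4 scored CpGs lie 132 to 266 bp downstream of the start, and each rests on 6 to 16 reads a library. Pex5l, which encodes an auxiliary subunit of HCN channels in neurons, was at 71.4% (57.6 to 82.2, 49 reads) in KO against 34.8% (24.6 to 46.6, 69 reads) in WT at 30 ppm, then at 70.8% (61.1 to 79.0, 96 reads) in KO against 41.8% (30.7 to 53.7, 67 reads) in WT at 3 ppm. KO was above WT at all 5 of its scored CpGs at both diets. Those at 224, 228 and 232 bp downstream had 10 reads each in KO and 12 each in WT at 30 ppm. The same reads can count at each of them, so the 5 CpGs are not independent. The pair of CGs in its printed sequence, at 230 and 219 bp upstream, read 50.0% and 88.9% in KO against 41.2% and 37.5% in WT at 30 ppm, and 66.7% and 75.0% against 50.0% and 29.4% at 3 ppm.

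Both Nfam1 and Gbp9 are known from immune cells. The Nfam1 window holds 12 CGs in the sequence, of which 10 were listed. Nfam1, a signalling receptor of B cells and myeloid cells, was at 53.1% (42.3 to 63.6, 81 reads) in KO against 23.7% (15.5 to 34.4, 76 reads) in WT at 30 ppm, then at 53.2% (43.2 to 63.0, 94 reads) in KO against 18.7% (12 to 27.9, 91 reads) in WT at 3 ppm, and KO was above WT at 7 of 7 scored CpGs at both diets, which lie from 7 bp upstream to 166 bp downstream. Gbp9, an interferon-induced guanylate-binding protein, was at 50.7% (39.3 to 62.0, 71 reads) in KO against 21% (12.7 to 32.6, 62 reads) in WT at 30 ppm, then at 49.3% (37.8 to 60.8, 69 reads) in KO against 21.2% (13.7 to 31.4, 80 reads) in WT at 3 ppm. At both genes KO was between 28.0 and 34.5 points above WT, and the KO and WT intervals do not overlap at either diet. Both genes were chosen by their calls in these same reads, so this separation largely follows from the choice.

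Cyp4f16, a cytochrome P450 of fatty acid hydroxylation, was at 43.3% (32.1 to 55.2, 67 reads) in KO against 20.3% (12.7 to 30.8, 74 reads) in WT at 30 ppm, then at 48.1% (38.7 to 57.6, 104 reads) in KO against 19.2% (12 to 29.3, 78 reads) in WT at 3 ppm. Its CG at 223 bp upstream read 50.0% in KO against 7.14% in WT at 30 ppm, then 31.2% and 0 at 3 ppm, while the CG at 88 bp upstream was at 0 to 10% in all 4 libraries. Sgk2, a kinase related to the glucocorticoid-induced kinase, was at 86.8% (79.0 to 92, 106 reads) in KO against 67.9% (59.6 to 75.2, 134 reads) in WT at 30 ppm, then at 85.9% (79.9 to 90.3, 170 reads) in KO against 70.2% (61.2 to 77.8, 114 reads) in WT at 3 ppm. Its upstream CGs were high in every library, from 61.5% to 100%, while the CpG at 207 bp downstream read 66.7% in KO against 38.9% in WT at 30 ppm, then 66.7% and 41.7% at 3 ppm.

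Neurod6, a proneural basic helix-loop-helix factor of cortical pyramidal neurons, was at 79.7% (72.7 to 85.3, 153 reads) in KO against 59.9% (52.2 to 67.1, 162 reads) in WT at 30 ppm, then at 72.8% (66.7 to 78.2, 228 reads) in KO against 58.8% (51.2 to 66.0, 165 reads) in WT at 3 ppm. Of the 3 CGs in its printed sequence, the one at 142 bp upstream read 73.3% in KO against 33.3% in WT at 30 ppm, then 45.5% and 23.5% at 3 ppm, whereas those at 111 and 63 bp upstream were higher in KO at 30 ppm and lower at 3 ppm. The remaining member, the predicted gene Gm3285, lies on chromosome 10, which also carries Tet1, and was at 75.0% (65 to 82.9, 88 reads) in KO against 46.3% (36.0 to 57.1, 82 reads) in WT at 30 ppm, then at 67.6% (59.7 to 74.6, 148 reads) in KO against 44.0% (33.9 to 54.7, 84 reads) in WT at 3 ppm. Adjusted p for the 8 genes lay between 0.000224 and 0.0442 at 30 ppm and between 5.4e-05 and 0.0385 at 3 ppm. Under a minimum of 10 reads per CpG 6 of the 8 could be scored and 2 kept both calls. Sgk2 kept neither there, at 12.3 points higher in KO at 30 ppm and 6.15 at 3 ppm. With all libraries thinned to the shallowest 7 could be scored and 2 kept both. Under both settings KO was above WT at both diets in every one scored. In windows of 1000 bp on each side all 8 could be scored and 3 kept both calls. Tap2 was then 13.6 points higher in KO at 30 ppm and 10.8 at 3 ppm, and kept both calls, and Pex5l 18.3 and 7.29 points, with the call at 30 ppm alone. In windows of 250 bp 6 could be scored, Tap2 not among them, and 4 kept both calls, while Neurod6 kept neither.

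**Figure D4:**
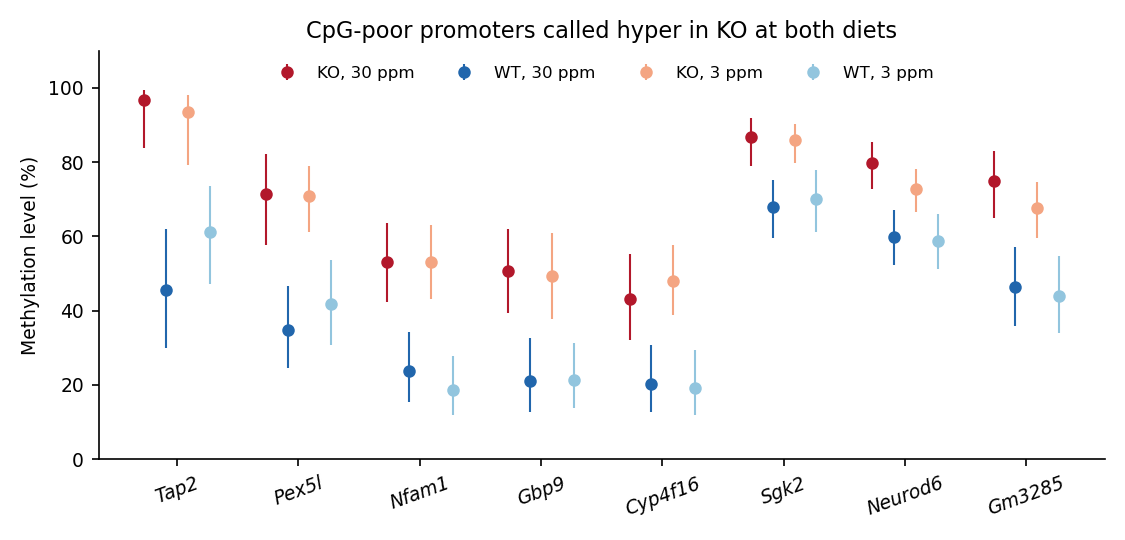
Methylation level in percent (vertical axis) of the 8 CpG-poor promoters called hyper in KO at both diets, with 1 point per library and 95% Wilson intervals as bars. Each gene (horizontal axis) has both KO libraries above both WT libraries, which largely follows from its choice by calls in these reads.

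Most calls were made at 1 diet only. The largest at 30 ppm alone were Tmem30c at 70.2% in KO and 36.0% in WT, Tmem273 at 95.2% and 62.9%, Mmp19 (a matrix metalloproteinase) at 87.1% and 57.3%, and Gpr84 (a fatty acid receptor of immune cells) at 100% and 70.6%. At 3 ppm the KO and WT levels of Tmem30c were 52.9% and 49.1%, and those of Tmem273 88.2% and 74.1%. Mmp19 and Gpr84 had 76.8% and 72.7%, and 92.1% and 88.9%. The largest at 3 ppm alone were Klk4 (a protease of tooth enamel) at 47.2% in KO and 10.3% in WT, Tnnt2 (cardiac troponin T) at 87.9% and 51.1%, Adamts4 (an aggrecan-cleaving protease) at 48.3% and 12.9%, and Odf3 (a sperm tail protein) at 64.1% and 30.3%. At 30 ppm Klk4 was at 18.2% in KO and 21.1% in WT and Tnnt2 at 68.2% and 64.0%. Adamts4 was 29.7 points and Odf3 14.9 points higher in KO at 30 ppm as well, without passing the test. These windows rest on 28 to 121 reads a library.

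Calls of one diet were then scored in the libraries of the other, which took no part in them. The 38 hyper members of 30 ppm had a median KO minus WT of 3.95 points at 3 ppm, with 24 (63.2%) above 0. The 59 hyper members of 3 ppm had one of 10.2 points at 30 ppm, with 51 (86.4%) above 0. Over all members 49.4% and 59.5% were above 0 at these diets. The hypo calls did not carry over in this way, as 3 of 6 and 11 of 23 were below 0 at the other diet, with medians of -1.45 and 0.31 points. Over the 2951 members the differences of both diets had a Pearson r of 0.232 and a Spearman rho of 0.164, as a description of promoters that share the same 2 libraries at each diet. Promoters with 11 to 40 CpGs, where read sums were larger, had an r of 0.620.

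**Figure D5:**
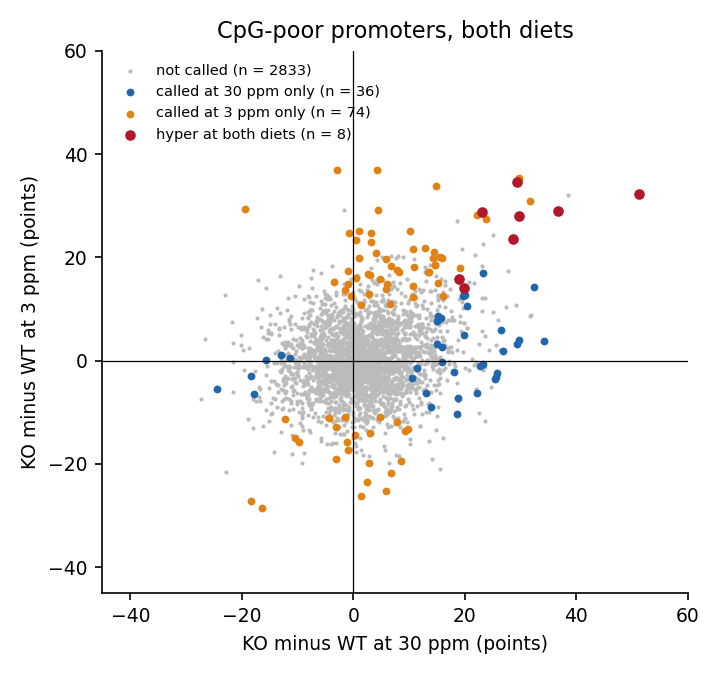
KO minus WT in percentage points at 30 ppm (horizontal axis) and 3 ppm (vertical axis), with 1 point per CpG-poor promoter and colours for calls by Fisher's exact test. The 8 promoters called hyper at both diets lie in the upper right, and 2833 promoters were not called at either diet.

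Of the 1193 members in a gene list 0.671% were hyper at 30 ppm and 1.26% at 3 ppm, against 1.71% and 2.50% of the members in none. Of 674 olfactory receptors 2 were hyper and 3 hypo at 30 ppm, and 3 hyper and 6 hypo at 3 ppm, with median differences of 0.43 and -1.16 points. Of all members 1.29% were hyper and 0.203% hypo at 30 ppm, and 2.00% and 0.779% at 3 ppm. Vomeronasal receptors had 0 calls at 30 ppm and 4 hyper and 1 hypo at 3 ppm, with medians of 0.08 and -2.09 points. Together the olfactory, vomeronasal and taste receptors had medians of 0.38 and -1.28 points, and the other 2106 members 2.23 and 0.52 points. Olfr361 had the largest mean difference of the olfactory receptors, at 89.3% in KO against 74.5% in WT at 30 ppm, then 92.5% and 72.9% at 3 ppm, and Olfr2 the lowest, at 67.9% and 90.7%, and 67.7% and 89.4%. Neither passed the test at either diet.

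The other lists are short, so that single calls are read against the 1.29% of all members that were hyper at 30 ppm and the 2.00% at 3 ppm. For hypo calls the shares of all members were 0.203% and 0.779%. The 35 chemokines and interleukins had 2 hyper calls at 30 ppm and 1 hypo call at 3 ppm, Il7r, the interleukin 7 receptor, at 78.5% in KO and 94.3% in WT. The C-type lectin genes Clec12b and Clec12a, neighbours on chromosome 6, differed in direction. Clec12b was at 71.5% in KO against 44.1% in WT at 3 ppm (adjusted p 0.000742) and at 63.3% and 39.5% at 30 ppm without passing. Clec12a was at 52.9% in KO against 77.4% in WT at 30 ppm (adjusted p 0.00585) and at 63.1% and 68.6% at 3 ppm, which did not pass. Defb2, an antimicrobial peptide, was hyper at 3 ppm, at 91.2% in KO and 70.4% in WT, and Crybg2, from the crystallin list, likewise, at 93.8% and 72.7%. Of 23 zinc finger genes 0 were hyper and 2 hypo at 3 ppm, one of them Zfp972 at 48.3% in KO and 75.5% in WT, which was also 18.4 points lower in KO at 30 ppm without passing. Serpins, taste receptors and the liver and serum, neuropeptide, erythroid, astrocyte and myelin, microglia and germ cell lists had 0 calls at both diets. The 45 cytochrome P450 genes had 1 hyper call at each diet, both Cyp4f16, and the 30 cornified envelope genes 2 hyper calls at 30 ppm. The 24 detoxifying transferases had 1 hyper call at 30 ppm and 1 hypo call at 3 ppm, the 19 keratins 1 hypo call and the 28 proteases 2 hyper calls at 3 ppm. The 33 solute carriers and the 10 striated muscle genes, with Tnnt2, had 1 hyper call each at 3 ppm.

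Few of these promoters were called between the diets. Between the diets (30 minus 3 ppm) 1 member was hyper and 1 hypo in KO, where 0.225% and 0.172% of all scored promoters were called, and 2 were hyper and 1 hypo in WT, where 0.178% and 0.101% were. In KO the hypo call was Mug1, a murinoglobulin that traps proteases, at 74.2% under 30 ppm and 90.2% under 3 ppm, and the hyper call Ms4a7, a membrane protein of macrophages, at 94.0% and 81.8%. In WT the hyper calls were Klk1b22, a kallikrein of the salivary gland, at 97.2% and 62.1%, and Sgms1, a sphingomyelin synthase, at 66.7% and 39.2%, and the hypo call was Ptprq, a phosphatase of inner ear hair cells, at 68.5% and 86.9%. None was called in the other genotype. Median differences over the members were 0.858 points in KO, with 56.0% above 0, and -0.701 points in WT, with 44.6% above 0, against 0.0207 and 0 points over all scored promoters. The library means over autosomal CpGs given above also differed between the diets, at 83.5% under 30 ppm and 82.8% under 3 ppm in KO, and at 81.4% and 82.1% in WT. The share of methylated reads over all listed autosomal CpGs was 83.1% and 82.0% in KO and 81.6% and 81.5% in WT. Over the members the KO and WT diet differences had an r of -0.022.

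The change of KO minus WT from diet to diet was tested per promoter with a Wald test on log odds ratios. No member passed after adjustment over all scored promoters, where 0.255% did (in windows of 1000 bp on each side 9 members passed), while 7.35% of members and 7.26% of all scored promoters had an unadjusted p under 0.05. The lowest adjusted p of a member, chosen after its values were seen, was 0.0793 at Gm30302, at 85.2% in KO against 76.7% in WT at 30 ppm, then 73.6% and 93.1% at 3 ppm. The fit over all 4 libraries with limma, on log2 ratios of methylated to unmethylated reads with diet as covariate, called 0 members for genotype and 0 of all scored promoters, with a lowest adjusted p of 0.0833. At an unadjusted p under 0.05 limma had 140 of 2951 members higher and 54 lower in KO, against 3330 and 276 of all 16862 scored promoters. Fisher's exact test had 244 members at 30 ppm and 273 at 3 ppm in either direction, against 3378 and 3946 of all. For diet limma called 0, with 43 members higher and 50 lower at 30 ppm at an unadjusted p under 0.05. With 1 residual degree of freedom these limma counts do not show that levels were alike.

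The regions that the authors called with DSS between single libraries rarely touched these promoters. Per the study's methods a region had to hold a minimum number of CpGs. A region that overlaps a window by 1 bp can hold CpGs outside it. Whether the minimum bears on the number of overlaps was not tested. At 30 ppm 1 member overlapped a hyper region by at least 1 bp, against 2.01% of all scored promoters, and at 3 ppm 6 members did, against 2.5%. The one at 30 ppm was Gp5, a platelet glycoprotein, at 82.6% in KO against 56.8% in WT at 30 ppm, then 79.4% and 81.8% at 3 ppm, which was also called here. Of the 6 at 3 ppm, none of them called here, Ppargc1a, a coactivator of mitochondrial biogenesis, was at 50.6% in KO against 23.7% in WT at 3 ppm, compared with 42.6% and 24.0% at 30 ppm, and Phyhd1 at 40.9% and 16.7%, and 50.0% and 25%. The others were D630023F18Rik, Art1, Gcm2 and H2-T3, and all 7 genes were chosen for this overlap after their values were seen. H2-T3 also overlapped the only hyper region between the diets in WT that touched a member. No member overlapped a hypo region in any comparison.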

How the data were processed

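CpG methylation was measured by WGBS in 4 libraries, 1 embryo brain per group. Per the study's methods and processing notes, the authors trimmed reads with Trim Galore 0.6.10, aligned them with Bismark 0.23.1 to GRCm38.p6, removed duplicates and combined the strands. The deposited tables hold, per CpG, a fraction of methylated reads (0 to 1), computed by the authors. They also give the deposited count of covering reads, without normalization. Their product lay within 4.37e-11 of a whole number and was taken as the methylated reads. The lowest count listed was 2. The authors also deposited DSS regions per pair of libraries as positions (other units, no fold or p-value).

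Starts came from GENCODE M21 (appris principal transcript, else the longest). CpGs covered by 5 or more reads in each library were summed per window. Fisher's exact test and the Wald test (0.5 added to each count) ran in Python 3 code with NumPy and SciPy, limma 3.58.1 in R 4.3.3 used a pseudocount of 1, and Benjamini-Hochberg adjustment ran over all 16862 scored promoters. Scripts were tested on simulated data. Calls were made at 10 or more points with an adjusted p under 0.05. CpG islands were stretches of at least 500 bp with GC of at least 55% and observed over expected CpG above 0.65 outside repeats, 12930 in all. All 18974562 autosomal CpGs listed lay on a CG of GRCm38.

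Genes named are those called at both diets (up to 12), the 4 largest called at 1 diet or by diet in each comparison, the 8 lowest in level with at least 50 reads per library, and the extremes of each gene list, with predicted genes used only to fill places. Of the 8 lowest, 1 is not reported here. The members, lists and tests were chosen with earlier results of these data known. Mean coverage was 13.2 to 21.2 reads per CpG. The lambda spike-in was not used here. Alternatives tried were the read minimum, thinning, window size, transcript choice, CpG limits, call size, CpGs never methylated, 1 stretch of chromosome 10, the limma scale and the overlap rule.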

Additional observations from a re-analysis of the deposited data

How the results depend on the processing

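The median KO minus WT at 30 ppm (1.68 points) stayed above 0 under every alternative run, and was 1.10 with a minimum of 10 reads, 1.22 with 3 to 7 listed CpGs and 2.43 with 3 to 15. At 3 ppm the median (-0.05 points) has no stable sign, at -0.44 with a minimum of 10 reads, -0.79 with 3 to 7 CpGs, 0.82 with 3 to 15 CpGs and 0.55 in windows of 250 bp on each side. Hyper calls at 30 ppm (38) were 13 with a minimum of 10 reads, 12 in windows of 250 bp, 98 in windows of 1000 bp, 17 with 3 to 7 CpGs, 132 with 3 to 15 and 21 at a call size of 20 points. Hyper calls at 3 ppm (59) were 27, 28, 22, 182 and 26 with a minimum of 10 reads, windows of 250 bp, 3 to 7 CpGs, 3 to 15 CpGs and 20 points, and 35 with all libraries thinned to the shallowest. Hypo calls at 30 ppm (6) were 1 in windows of 250 bp and 1 at 20 points. Hypo calls at 3 ppm (23) were 12 with a minimum of 10 reads, 13 thinned, 9 in windows of 250 bp and 6 at 20 points. Windows of 250 bp left 1610 members to score and a minimum of 10 reads 2024, so fewer promoters were tested there. Calls over all scored promoters moved as well, from 1244 at 30 ppm and 1663 at 3 ppm of 16862 to 602 and 756 of 9355 with a minimum of 10 reads, 479 and 673 of 11542 in windows of 250 bp, and 3130 and 3380 of 19818 in windows of 1000 bp. Hyper calls of members at 30 and 3 ppm were 29 against 35 in thinned libraries. In windows of 1000 bp they were 98 against 84, the opposite order. The diet calls (2 in KO, 3 in WT) rest on so few promoters that most alternatives moved them. They were 0 and 0 in windows of 250 bp and with 3 to 7 CpGs, 10 and 8 in windows of 1000 bp, 6 and 6 with 3 to 15 CpGs, and 1 and 0 with a minimum of 10 reads. In KO they were 0 at 20 points, 1 thinned and 1 at the longest transcript's start, and in WT 6 with a minimum of 2 reads. The count of 0 in the Wald test of genotype by diet became 1 in thinned libraries (Gm30302, adjusted p 0.0457) and, under alternatives chosen after seeing the data, 9 in windows of 1000 bp, 2 with 3 to 15 CpGs and 1 at the longest transcript start. Overlaps with deposited regions (1 at 30 ppm, 6 at 3 ppm) became 0 and 3 when at least 50% of the region had to lie in the window. The cause of these changes was not tested except where fewer CpGs or promoters entered by construction. Of 280 calls of named genes recomputed under the alternatives, 232 still passed, 48 no longer did and 0 turned sign. Promoters that could no longer be scored are left out of the 280. The settings of 3 to 7 and 3 to 15 CpGs keep the reads and tests unchanged, so calls there pass by construction. Leaving out the stretch of chromosome 10 changes the reads of no member. For the 8 genes called at both diets, differences were also identical with a minimum of 2 reads and without CpGs never methylated. The 232 therefore overstate how stable the calls were. Leaving out 199 CpGs never methylated in 179 members, or chromosome 10 from 40 to 46 Mb, left the medians and call counts of genotype and diet within 1 call and 0.1 points of the main values, and the stretch of chromosome 10 held 0 members. Limma stayed at 0 calls with a pseudocount of 0.5, on the fraction and without the diet covariate. Its counts at an unadjusted p under 0.05 moved with the scale. Members higher and lower in KO were 92 and 41 with a pseudocount of 0.5, and 290 and 132 on the fraction. Of all scored promoters 3017 and 278, and 3192 and 204, were. For diet, members higher and lower at 30 ppm were 134 and 119 on the fraction. No paired analysis was possible because every group has 1 library and the labels give no shared replicate numbers. Leaving out a replicate was likewise not possible. The median of 69 to 114 reads per promoter limits what could be called at CpG-poor promoters.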

Other observations

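The genes given here lie outside the naming rule and were picked one by one after their values were seen, so they stand for no group. Olfr671 and Olfr223 are on the olfactory receptor list, which had 2 hyper and 3 hypo calls among 674 members at 30 ppm. No count of related genes is given for the others. Called hyper at 3 ppm were Cd74, H2-Eb2, Shank2, Cdh10 and Lrrn3. Cd74, the invariant chain of class II molecules, was at 90.3% in KO against 75.5% in WT at 3 ppm and at 84.0% and 85.0% at 30 ppm. H2-Eb2, a class II beta chain, was at 74.4% and 56.2% at 3 ppm and at 65.7% and 58.9% at 30 ppm. Shank2, a scaffold of excitatory synapses, was at 95.2% in KO against 80.5% in WT at 3 ppm, Cdh10, a cadherin, at 65.4% and 45.6%, and Lrrn3, a leucine-rich repeat protein of neurons, at 69.4% and 52.4%. At 30 ppm Shank2, Cdh10 and Lrrn3 did not pass the test, at 76.4% and 70.4%, 53.3% and 38.9%, and 66.7% and 58.4%.

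Called hypo at 30 ppm were Taar8a, Olfr671 and Olfr223, while 2 other olfactory receptors were hyper there. Taar8a, a trace amine receptor, was at 77.8% in KO against 96.1% in WT, Olfr671 at 81.2% and 94.2%, and Olfr223 at 84.5% and 95.7%. At 3 ppm these genes were at 86.0% and 89.0%, 90.4% and 89.4%, and 89.8% and 89.4%. Smim18 was hyper at 30 ppm, at 80.5% in KO against 57.2% in WT over 173 to 215 reads, and at 74.7% and 75.4% at 3 ppm, with an adjusted Wald p of 0.0809 for the difference between the diets, and of 0.0217 in windows of 1000 bp on each side.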
